A study of Arabidopsis thaliana with 27 samples.

Results

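Acyl-CoA-binding proteins are a family of 6 genes in Arabidopsis thaliana, ACBP1 to ACBP6, and they were taken by their locus codes. The deposited array table held a named probe set for 5 of the 6 genes, which are 5 of 22746 probe sets in all. ACBP1 (AT5G53470), ACBP2 (AT4G27780), ACBP4 (AT3G05420), ACBP5 (AT5G27630) and ACBP6 (AT1G31812) had 1 probe set each. ACBP3 (AT4G24230), an extracellularly targeted member linked to leaf senescence, had no named probe set and was not analysed here.

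Fatty acids leave the chloroplast and are activated to acyl-CoA esters, which are poorly suited to travel alone through the aqueous cytosol. Acyl-CoA-binding proteins hold these esters, form an intracellular pool of them and pass them between membranes and enzymes of glycerolipid synthesis and breakdown. In leaves the members differ in location: ACBP1 and ACBP2 are membrane-anchored proteins with ankyrin repeats, ACBP4 and ACBP5 are cytosolic proteins with kelch motifs, and ACBP6 is a small cytosolic protein that consists of little more than the binding domain.

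Wild-type plants of ecotype Col-0 were grown on agar plates at 22 °C under long days and exposed to 38 °C for a day from an age of 18 days, then returned to 22 °C for a day. The study asked which lipid-related genes changed under this treatment and during recovery. Aerial parts were harvested, the labels give the tissue as leaf, and RNA was measured on 27 Affymetrix ATH1 arrays. No transgene or mutant was used, and the labels describe the arrays of a group as biological replicates.

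Heat08 hr plants were 18 days old and had 8 hours at 38 °C, and Heat24 hr plants were 19 days old and had 24 hours. Recovery08 hr plants were 19 days old and Recovery24 hr plants 20 days old, at 8 and 24 hours after the return to 22 °C. These 4 groups had 3 arrays each. Control08 hr held 6 arrays of plants kept at 22 °C, from ages of 18 and 19 days, and Control24 hr held 9, from ages of 18, 19 and 20 days. The groups named 08 hr were harvested in the afternoon and those named 24 hr in the morning, so each treated group was compared with the controls of its own clock time. Heat and recovery groups of one clock time shared their control arrays.

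The values were MAS5 signal intensities on a linear scale, in which each probe set has its own brightness, so that levels were compared between groups and not between genes. The table carried no detection calls. The number of arrays limited the precision of every value. As the RNA came from whole aerial parts, fewer cells of a type and less RNA per cell cannot be told apart.

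Some facts of the whole series bear on the members. The heat shock factor HSFA2, a regulator that is switched on by heat, lay between 2.98 and 47.1 on the 15 control arrays, between 1096 and 1304 at Heat08 hr and between 4532 and 5257 at Heat24 hr, so the labels of the heat arrays matched the treatment. Median signals ranged from 120 to 134 on the 6 heat arrays and from 162 to 176 on the controls, and replicate 3 of Recovery08 hr stood apart from its group, with an SD of log2 differences of 0.623 and 0.716 to the other replicates, which differed from each other by 0.359. Of the leaf markers 2 of 6 were measured, and their summed signal was 42090 to 58179 on the controls, 29161 to 33249 at Heat08 hr, 21207 to 22344 at Heat24 hr, 11099 to 12603 at Recovery08 hr and 17846 to 26335 at Recovery24 hr. The lower leaf sum at Heat08 hr came mostly from SBPASE, with a group mean of 6333 against 17330 in Control08 hr. The group mean of LHCB4.1 was 25287 against 27496. Of the root markers 2 of 4 were measured, with sums of 675 to 1563 on the controls, 194 to 207 at Heat08 hr, 44.2 to 110 at Heat24 hr, 122 to 187 at Recovery08 hr and 1102 to 1291 at Recovery24 hr. These sums came mostly from PYK10, a beta-glucosidase of the root and the seedling, whereas the root hair gene EXPA7 lay between 1.98 and 76.9 throughout. The 2 measured seed oleosins of 4 seed markers had sums of 7.46 to 89.1 over all arrays, and the 3 anther markers had sums of 61.3 to 661, the highest on a control array. The part of these shifts in the results below was not tested.

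ACBP1, an endoplasmic reticulum and plasma membrane protein, had the widest range of the measured members. Its signal in Control08 hr was 286 at the lowest, 343 at the median and 401 at the highest, and in Control24 hr it was 285, 333 and 413. The Heat08 hr arrays gave 117, 68.8 and 47.7 and the Heat24 hr arrays 90.1, 68.8 and 82.4. All heat arrays thus lay far below all control arrays of either clock time, and below the median signals of the heat arrays (120 to 134). The Recovery08 hr arrays gave 525, 529.9 and 556, all above the controls, and the Recovery24 hr arrays gave 499, 479 and 382, of which the lowest lay within the control range. From highest to lowest the group means ran Recovery08 hr (537), Recovery24 hr (454), Control24 hr (342), Control08 hr (341), Heat24 hr (80.5) and Heat08 hr (77.7). In this order the arrays of the 2 recovery groups did not overlap and neither did those of Control08 hr and Heat24 hr, whereas the other neighbours did. The highest group mean was 6.91 times the lowest.

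ACBP2 is the closest relative of ACBP1 and carries the same ankyrin repeats. It gave 131 at the lowest, 165 at the median and 236 at the highest in Control08 hr, and 163, 230 and 335 in Control24 hr. Heat08 hr arrays gave 169, 178 and 131 and Heat24 hr arrays 259, 244 and 284, within the range of their controls in every case but the lowest Heat08 hr array, which was just below it. The Recovery08 hr arrays gave 359, 478 and 286 and lay above every Control08 hr array, while the lowest of them lay within the Control24 hr range. The Recovery24 hr arrays gave 230, 174 and 164, within the Control24 hr range. Recovery08 hr had the highest group mean (374), followed by Heat24 hr (262), Control24 hr (239), Recovery24 hr (189), Control08 hr (172) and Heat08 hr (159). Only Recovery08 hr was separate from its neighbour in this order. The arrays of a group scattered more for ACBP2 than for the other members in the controls, with a coefficient of variation of 22.8% in Control08 hr and 22.0% in Control24 hr.

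ACBP4, a cytosolic protein with kelch motifs, gave 598 at the lowest, 682 at the median and 746 at the highest in Control08 hr, and 483, 548 and 589 in Control24 hr. Its control arrays of the afternoon and the morning did not overlap, and how common this is among all probe sets was not counted. Under heat the arrays gave 242, 219 and 216 at Heat08 hr and 310, 278 and 334 at Heat24 hr. Both sets were below all controls, and every Heat24 hr array was above every Heat08 hr array. The Recovery08 hr arrays gave 827, 658 and 777 and overlapped with Control08 hr, whereas the Recovery24 hr arrays gave 796, 773 and 804 and lay above every control array. The group means in order were Recovery24 hr (791), Recovery08 hr (754), Control08 hr (672), Control24 hr (548), Heat24 hr (307) and Heat08 hr (226), and the arrays of Recovery08 hr overlapped with those of Recovery24 hr and of Control08 hr while the other neighbours were separate.

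ACBP5, the other kelch-motif member, gave 78.7 at the lowest, 96.0 at the median and 105 at the highest in Control08 hr, and 79.0, 94.3 and 127 in Control24 hr. The heat arrays gave 53.8, 35.6 and 47.9 at Heat08 hr and 51.0, 55.8 and 52.2 at Heat24 hr, all below the controls. These are low signals, below the median signals of the heat arrays (120 to 134), and no detection calls were at hand. At Recovery08 hr the arrays gave 142, 115 and 136, above all Control08 hr arrays, and at Recovery24 hr they gave 57.7, 70.9 and 70.7, below all Control24 hr arrays. The 2 recovery groups thus lay on opposite sides of their controls. The group means in order were Recovery08 hr (131), Control24 hr (98.6), Control08 hr (94.1), Recovery24 hr (66.4), Heat24 hr (53.0) and Heat08 hr (45.8). Recovery24 hr was separate from both of its neighbours in this order, and the other neighbours overlapped.

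ACBP6, the small cytosolic member, gave 10284 at the lowest, 11346 at the median and 12942 at the highest in Control08 hr, and 10799, 11847 and 12956 in Control24 hr. The heat arrays gave 11249, 11911 and 12034 at Heat08 hr and 11435, 11450 and 12886 at Heat24 hr, all within the range of their controls. The Recovery08 hr arrays gave 6985, 6674 and 6653, the lowest values of the series for this probe set, and the Recovery24 hr arrays gave 9859, 9221 and 10297, below every Control24 hr array. The group means in order were Heat24 hr (11924), Control24 hr (11754), Heat08 hr (11731), Control08 hr (11404), Recovery24 hr (9792) and Recovery08 hr (6770). All neighbours overlapped except the 2 recovery groups.

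**Figure D1:**
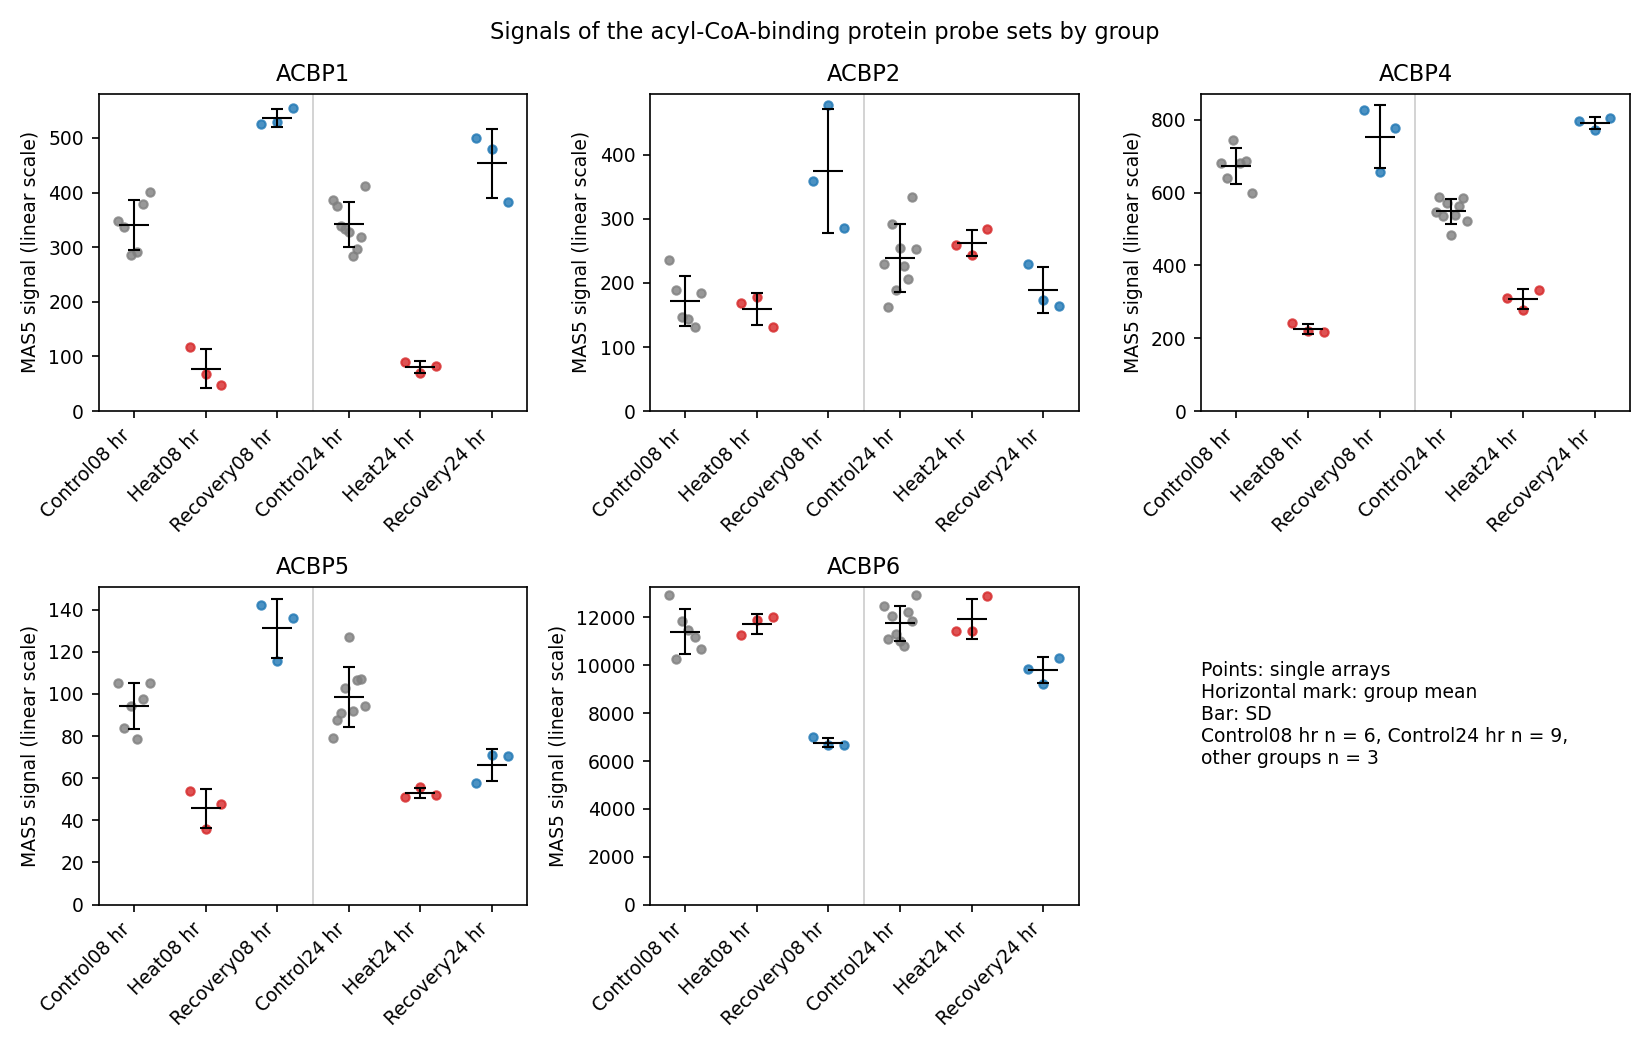
MAS5 signal (linear scale, from 0) of the 5 measured ACBP probe sets on each of the 27 arrays, by group, with points for arrays, a horizontal mark for the group mean and a bar for the SD. ACBP1, ACBP4 and ACBP5 lay lowest in the heat groups, ACBP2 highest at Recovery08 hr (286 to 478) and ACBP6 lowest at Recovery08 hr (6653 to 6985).

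The effect of heat was then tested against the controls of the same clock time. Log2 signals were compared by limma, and a probe set was called where its p, adjusted by Benjamini-Hochberg over all 22746 probe sets, was under 0.05 and its change at least 1.5-fold in either direction. At Heat08 hr 3 of the 5 members were called lower and 0 higher, against 23.8% and 14.6% of all probe sets. The members without a call, ACBP2 and ACBP6, also had unadjusted p-values above 0.05. At Heat24 hr the same 3 genes were called lower and 0 members were called higher, against 28.9% and 19.9% of all probe sets, and the other 2 again had unadjusted p-values above 0.05.

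ACBP1 had the largest difference of the members at both heat time points. Its log2 difference from control was -2.22 at Heat08 hr (SE 0.257, 4.65-fold lower, adjusted p = 0.00012) and -2.09 at Heat24 hr (SE 0.125, 4.24-fold lower, adjusted p = 3.0e-08). Of all probe sets, 4.57% had a lower difference at Heat08 hr and 10.2% at Heat24 hr. ACBP4 decreased by 1.57 on the log2 scale at Heat08 hr (SE 0.0895, 2.97-fold, adjusted p = 2.1e-06) and by 0.84 at Heat24 hr (SE 0.0830, 1.79-fold, adjusted p = 2.6e-06). ACBP5 decreased by 1.05 at Heat08 hr (SE 0.154, 2.07-fold, adjusted p = 0.00050) and by 0.88 at Heat24 hr (SE 0.126, 1.84-fold, adjusted p = 6.2e-05). With 16 added to each signal, which damps changes at low signals, ACBP5 was at -0.84 and -0.72. These 3 genes thus included both kelch-motif members and 1 of the 2 ankyrin-repeat members.

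For ACBP2 the log2 difference was -0.09 at Heat08 hr (95% confidence interval -0.56 to 0.37) and 0.16 at Heat24 hr (-0.25 to 0.58). For ACBP6 it was 0.04 (-0.16 to 0.25) and 0.02 (-0.15 to 0.20). These intervals lie within 1.5-fold, but they hold for the deposited scaling alone. The heat arrays had lower medians, and the median log2 difference over all probe sets was -0.13 at Heat08 hr as deposited but 0.25 once each array was centred on its own median. The same step took it from -0.22 to 0.19 for Heat24 hr. Under median centring ACBP6 was at 0.42 and 0.44 and ACBP2 at 0.28 and 0.58, and the sign of ACBP2 at Heat08 hr was turned. The adjusted p by limma was then under 0.05 for ACBP6 at both time points and for ACBP2 at Heat24 hr. These values missed a call only because they were under 1.5-fold. For ACBP2 at Heat08 hr the adjusted p stayed above 0.05. Relative to the median of all probe sets, the deposited signals placed ACBP1 at -2.09 and -1.86, ACBP4 at -1.45 and -0.61, ACBP5 at -0.93 and -0.66, ACBP2 at 0.03 and 0.39 and ACBP6 at 0.17 and 0.24, for Heat08 hr and Heat24 hr in that order.

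The decreases of ACBP1, ACBP4 and ACBP5 at Heat08 hr passed the test under all alternatives tried. At Heat24 hr the adjusted p-values stayed under 0.05 for all 3 genes, but under median centring ACBP4 (-0.42) and ACBP5 (-0.47) fell short of 1.5-fold, as did ACBP5 under quantile normalization (-0.41). The root gene PYK10 was lower in the same arrays, with log2 differences of -2.67 at Heat08 hr and -3.93 at Heat24 hr. So was the Calvin cycle gene SBPASE, with -1.45 and -3.75. The other measured root marker, EXPA7 (0.29 and -2.07), and leaf marker, LHCB4.1 (-0.12 and -0.52), were not called at either time point. The part of these markers in the members' values was not tested.

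**Figure D2:**
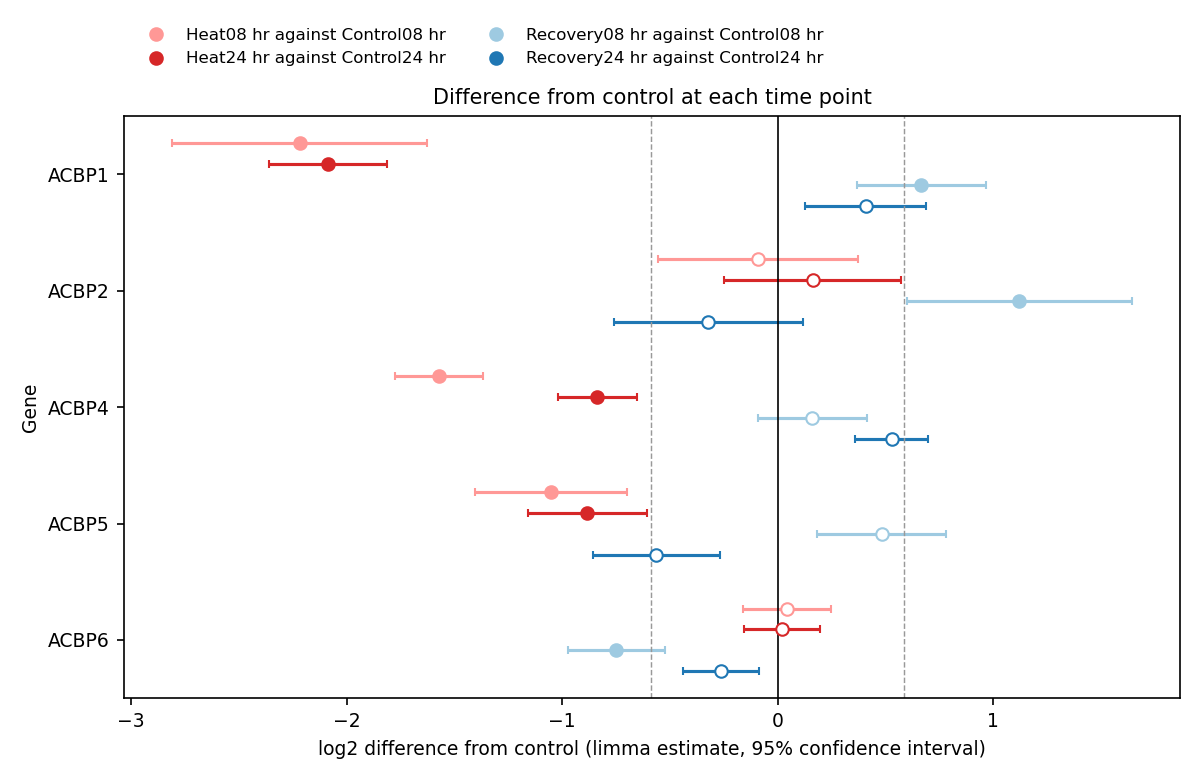
Log2 difference from the controls of the same clock time (limma estimate with its 95% confidence interval) for the 5 members in 4 comparisons. Filled points passed the test and the dashed lines mark 1.5-fold in either direction; ACBP1 lay furthest from 0, at -2.22 and -2.09 under heat.

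The responses of the 2 heat time points were compared with each other through an interaction term, which is the Heat24 hr difference less the Heat08 hr difference. Of the 5 members 1 was called higher and 0 lower, against 14.1% and 15.6% of all probe sets, and 1 had an unadjusted and an adjusted p under 0.05, as had 43.2% and 35.9% of all probe sets. The called member was ACBP4, whose decrease was smaller at Heat24 hr than at Heat08 hr by 0.74 on the log2 scale (SE 0.113, adjusted p = 3.2e-05). The control level of ACBP4 was higher in the afternoon by 0.29 on the log2 scale, so its heat differences start from unlike baselines. For ACBP1 the interaction was 0.13 (95% confidence interval -0.44 to 0.70), for ACBP2 0.25 (-0.33 to 0.84), for ACBP5 0.17 (-0.24 to 0.58) and for ACBP6 -0.02 (-0.25 to 0.21). At this number of arrays the intervals of ACBP1 and ACBP2 thus included a 1.5-fold difference between the time points. Duration of heat, age and clock time differ together between these groups and cannot be told apart.

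Recovery was compared with the same controls as heat. At Recovery08 hr 2 of the 5 members were called higher than Control08 hr and 1 lower, against 21.7% and 23.2% of all probe sets. Both ankyrin-repeat members increased. ACBP1 was 1.59-fold higher (log2 0.67, SE 0.132, adjusted p = 0.0026) and ACBP2 was 2.18-fold higher (log2 1.12, SE 0.228, adjusted p = 0.0030). ACBP6 was 1.68-fold lower (log2 -0.75, SE 0.0988, adjusted p = 0.00026). ACBP5 was 1.40-fold higher with an adjusted p of 0.013 (up to 0.059 with 1 array left out) and did not reach the fold threshold. ACBP4 had a log2 difference of 0.16 (95% confidence interval -0.09 to 0.42).

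The scaling of the arrays decided part of these calls. With quantile normalization, which gives every array the same distribution, ACBP6 was at -0.22 at Recovery08 hr with an adjusted p of 0.109, and ACBP1 was at 0.56 with an adjusted p of 0.0099, just short of 1.5-fold. Under median centring the values were -0.73 and 0.69 and both passed. ACBP2 passed under both scalings, at 1.08 and 1.15. Without replicate 3 of Recovery08 hr, or any other single array, the 3 calls stood. In the same arrays the leaf markers LHCB4.1, a chlorophyll-binding protein, and SBPASE were at -1.58 and -2.89 on the log2 scale against Control08 hr. The root marker PYK10 was at -3.06, whereas EXPA7 was at -0.44 and was not called. The part of these markers in the members' values was not tested.

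At Recovery24 hr 0 of the 5 members were called higher and 0 lower than Control24 hr by limma, against 11.8% and 13.3% of all probe sets. With no fold threshold, 4 of the 5 members had an unadjusted p under 0.05 and the same number an adjusted p under 0.05, as had 45.3% and 36.5% of all probe sets. With age-matched controls alone the adjusted p-values of all 5 were above 0.05, from 0.055 to 0.46. ACBP4 was 1.44-fold higher (log2 0.53, SE 0.0772, adjusted p = 0.00027). ACBP1 was 1.33-fold higher (log2 0.41, SE 0.128, adjusted p = 0.026, up to 0.124 with 1 array left out). ACBP5 was 1.48-fold lower (log2 -0.56, SE 0.135, adjusted p = 0.0065). ACBP6 was 1.20-fold lower (log2 -0.26, SE 0.0802, adjusted p = 0.024, up to 0.117 with 1 array left out). ACBP2 had a log2 difference of -0.32 (95% confidence interval -0.76 to 0.12). ACBP5 lay close to the threshold and was called under median centring (-0.63), without replicate 1 of the Control24 hr plants of 19 days (-0.60), and without replicate 2 (-0.61) or replicate 3 (-0.61) of Recovery24 hr. ACBP6 was at 0.09 under quantile normalization, so its sign at Recovery24 hr depended on the scaling.

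**Figure D3:**
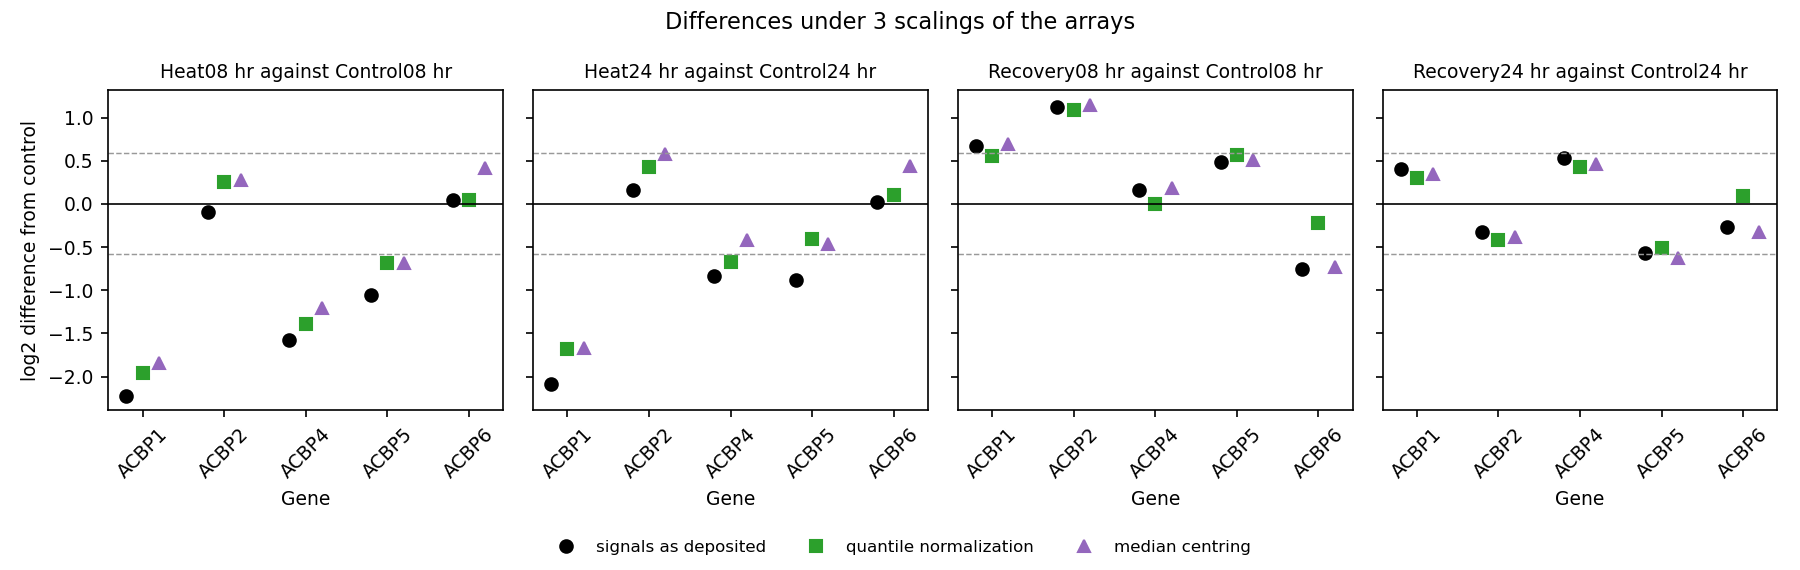
Log2 difference from control of the 5 members under the deposited scaling (circles), quantile normalization (squares) and median centring (triangles), with dashed lines at 1.5-fold. The largest gap at Recovery08 hr was that of ACBP6, at -0.75 as deposited and -0.22 after quantile normalization.

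The 2 recovery time points were set against each other in the same way as the heat time points. This interaction of recovery and clock time, the Recovery24 hr difference less the Recovery08 hr difference, was chosen after the values were seen. Of the 5 members 0 were called higher and 2 lower, against 17.9% and 16.7% of all probe sets, and 4 had an unadjusted and an adjusted p under 0.05, as had 45.3% and 39.1% of all probe sets. ACBP2 had an interaction of -1.44 on the log2 scale (SE 0.305, adjusted p = 0.00079), from 1.12 at Recovery08 hr to -0.32 at Recovery24 hr. ACBP5 had one of -1.05 (SE 0.186, adjusted p = 0.00015), from 0.48 to -0.56. ACBP6 (0.49, adjusted p = 0.0018) and ACBP4 (0.37, adjusted p = 0.019) had interactions under 1.5-fold. That of ACBP4 had an adjusted p of 0.30 with age-matched controls, 0.073 under median centring and 0.087 without replicate 2 of Recovery08 hr. ACBP1 had an interaction of -0.26 (95% confidence interval -0.64 to 0.12). In the controls, the afternoon less the morning level was -0.48 for ACBP2 and 0.29 for ACBP4, so their differences start from unlike baselines. Between the recovery groups, hours of recovery, age and clock time differ together and cannot be told apart.

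The step from heat to recovery at one clock time was also tested. Against Heat08 hr, Recovery08 hr had 4 of the 5 members called higher and 1 lower, compared with 21.8% and 16.2% of all probe sets. The log2 increase was 2.89 for ACBP1 (7.39-fold, adjusted p = 0.0024), 1.73 for ACBP4 (3.33-fold, adjusted p = 0.0013), 1.53 for ACBP5 (2.90-fold, adjusted p = 0.0038) and 1.21 for ACBP2 (2.32-fold, adjusted p = 0.014). The increase of ACBP2 did not pass after quantile normalization (0.83, adjusted p = 0.052) or median centring (0.87, adjusted p = 0.058). ACBP6 decreased by 0.79 (1.73-fold, adjusted p = 0.0069), and under quantile normalization it was at -0.26 with an adjusted p of 0.19.

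Against Heat24 hr, Recovery24 hr had 2 of the 5 members called higher and 0 lower, compared with 23.6% and 17.0% of all probe sets, and 3 had an unadjusted and 2 an adjusted p under 0.05, as had 50.3% and 42.4% of all probe sets. ACBP1 increased by 2.49 on the log2 scale (5.63-fold, SE 0.186, adjusted p = 0.00067) and ACBP4 by 1.37 (2.58-fold, SE 0.138, adjusted p = 0.0014). ACBP5, which had risen from Heat08 hr to Recovery08 hr, had a log2 difference of 0.32 here (95% confidence interval -0.06 to 0.70), which turned to -0.10 under quantile normalization and to -0.16 under median centring. ACBP2 was at -0.48 (adjusted p = 0.088) and was called lower under quantile normalization (-0.84), under median centring (-0.96) and without replicate 1 of Recovery24 hr (-0.63). ACBP6 was at -0.28 (adjusted p = 0.15) and was called lower under median centring (-0.76).

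**Figure D4:**
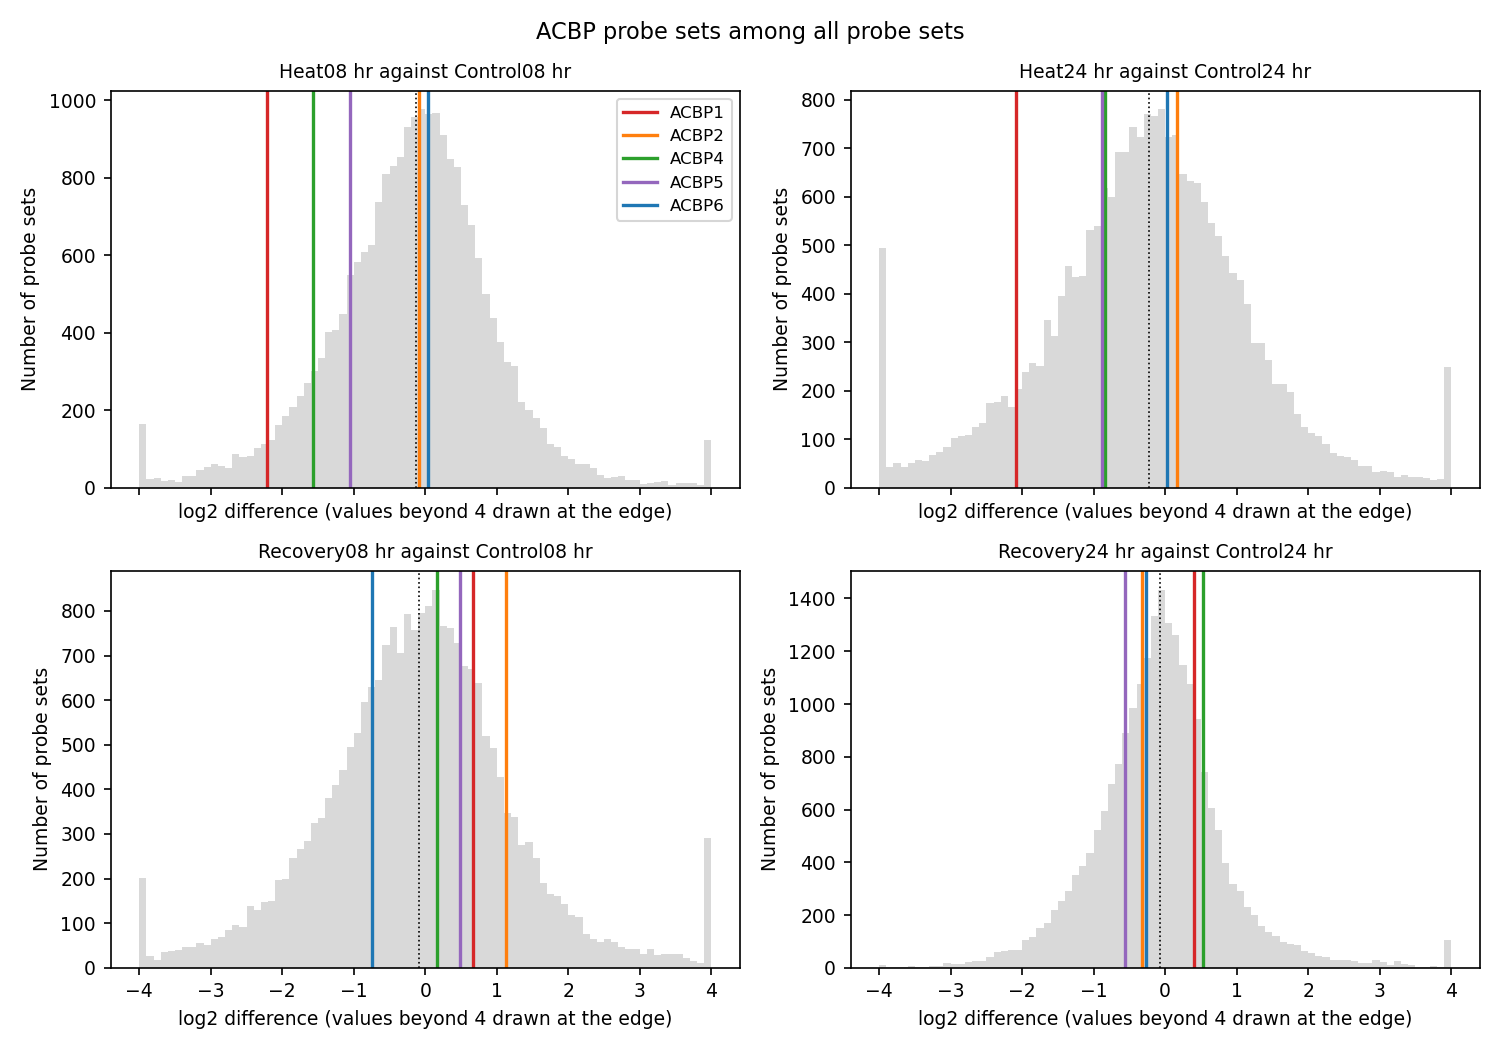
Distribution of the log2 difference from control over all 22746 probe sets in 4 comparisons (grey, in bins of equal width, values beyond 4 in either direction drawn at the edge), with a coloured line for each member and a dotted line for the median of all. At Heat08 hr ACBP1 (-2.22) had 4.57% of all probe sets below it, and at Recovery08 hr ACBP2 (1.12) had 85.6% below it.

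The controls were compared between clock times to see how much the members varied through the day at 22 °C. In Control08 hr against Control24 hr 0 of the 5 members were called higher and 0 lower by limma, against 8.22% and 7.84% of all probe sets, and 2 of the 5 had an unadjusted and an adjusted p under 0.05, as had 41.0% and 33.4% of all probe sets. These were ACBP4, 1.22-fold higher in the afternoon (log2 0.29, SE 0.0599, adjusted p = 0.0012), and ACBP2, 1.39-fold lower in the afternoon (log2 -0.48, SE 0.163, adjusted p = 0.036, up to 0.090 with 1 array left out). The differences of ACBP1, ACBP5 and ACBP6 lay between -0.06 and -0.01. Across ages within a clock time the means of 3 control arrays ranged from 338 to 345 for ACBP1, from 532 to 561 in the morning and 640.0 to 704 in the afternoon for ACBP4, and from 208 to 257 in the morning for ACBP2. Comparing each treated group with controls of its own age alone changed no call of a member.

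The proteins bind what other enzymes make and use, and 3 lists of such enzymes were described for comparison. The long-chain acyl-CoA synthetases, which make acyl-CoA esters from free fatty acids, had 6 of 9 genes measured. At Heat08 hr 0 of them were called higher and 3 lower, at Heat24 hr 2 higher and 0 lower, at Recovery08 hr 3 higher and 0 lower, and at Recovery24 hr 2 higher and 0 lower. The shares of all probe sets called higher and lower were 14.6% and 23.8%, 19.9% and 28.9%, 21.7% and 23.2%, and 11.8% and 13.3% in that order, and with so few genes the list counts are a description only. The median log2 differences of the list were -0.62, 0.50, 0.59 and 0.76 in that order, against -0.13, -0.22, -0.09 and -0.07 over all probe sets and -1.05, -0.84, 0.48 and -0.26 over the 5 binding proteins. The largest called increase was that of LACS7, a peroxisomal synthetase, at Recovery08 hr (log2 2.09, SE 0.105, adjusted p = 1.6e-06 by limma). The largest called decrease was that of LACS6, its peroxisomal relative, at Heat08 hr (log2 -0.97, SE 0.0767, adjusted p = 1.3e-05), a gene that was called higher than control at Heat24 hr (1.09) and at Recovery24 hr. The control level of LACS6 was higher in the afternoon by 1.81 on the log2 scale, so its afternoon and morning differences start from unlike baselines.

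The acyltransferases, which use acyl-CoA to build phospholipids and triacylglycerol, had all 12 listed genes measured. Of these 4 were called higher and 2 lower at Heat08 hr, 4 and 2 at Heat24 hr, 2 and 3 at Recovery08 hr, and 4 and 0 at Recovery24 hr, with median log2 differences of 0.45, 0.03, 0.10 and 0.24, against the -0.13, -0.22, -0.09 and -0.07 of all probe sets. The shares of all probe sets called higher and lower were 14.6% and 23.8% at Heat08 hr, and 19.9% and 28.9% at Heat24 hr. They were 21.7% and 23.2% at Recovery08 hr, where the list counts were near them, and 11.8% and 13.3% at Recovery24 hr. The list counts are a description only. DGAT1, which makes triacylglycerol from diacylglycerol and acyl-CoA, had the largest called increase at Heat24 hr (log2 3.67, SE 0.127, adjusted p = 3.2e-10 by limma), and it was also called higher at Heat08 hr (0.73) and Recovery24 hr (1.87) and lower at Recovery08 hr (-0.61). Its control level differed widely through the day, by 2.96 on the log2 scale in favour of the afternoon, so the afternoon and morning differences start from unlike baselines. LPEAT2, a lysophosphatidylethanolamine acyltransferase, had the largest called decrease, also at Heat24 hr (log2 -1.94, SE 0.219, adjusted p = 8.2e-06). In those Heat24 hr arrays ACBP6 was at 0.02 and ACBP1 at -2.09.

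The genes of acyl-CoA breakdown, made up of the peroxisomal acyl-CoA oxidases, thioesterases and the importer CTS, had all 9 listed genes measured. Of these 2 were called higher and 0 lower at Heat08 hr, 4 and 1 at Heat24 hr, 3 and 1 at Recovery08 hr, and 3 and 0 at Recovery24 hr, with median log2 differences of 0.26, 0.37, 0.03 and 0.47. The shares of all probe sets called higher and lower were 14.6% and 23.8%, 19.9% and 28.9%, 21.7% and 23.2%, and 11.8% and 13.3% in that order. With so few genes these list counts, too, are a description only. ACX1, an acyl-CoA oxidase, had the largest called increase at Recovery08 hr (log2 2.28, SE 0.156, adjusted p = 6.7e-06 by limma), and the thioesterase gene ACT2 the largest called decrease at Heat24 hr (log2 -0.84, SE 0.110, adjusted p = 2.8e-05). The probe set of ACX3, a further acyl-CoA oxidase, is annotated with another gene as well. Low mean signals over all arrays were those of ACX6 (26.3), of LACS5 among the synthetases (19.8) and of LPAAT3 among the acyltransferases (32.2). The list median of 0.47 at Recovery24 hr was the value of ACX6 (SE 0.685). The 4 genes listed as protein partners of the ankyrin-repeat and kelch-motif members (PLDalpha1, RAP2.3, LYSOPL2 and FP6) are not analysed here, as no probe set carried their names.

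**Figure D5:**
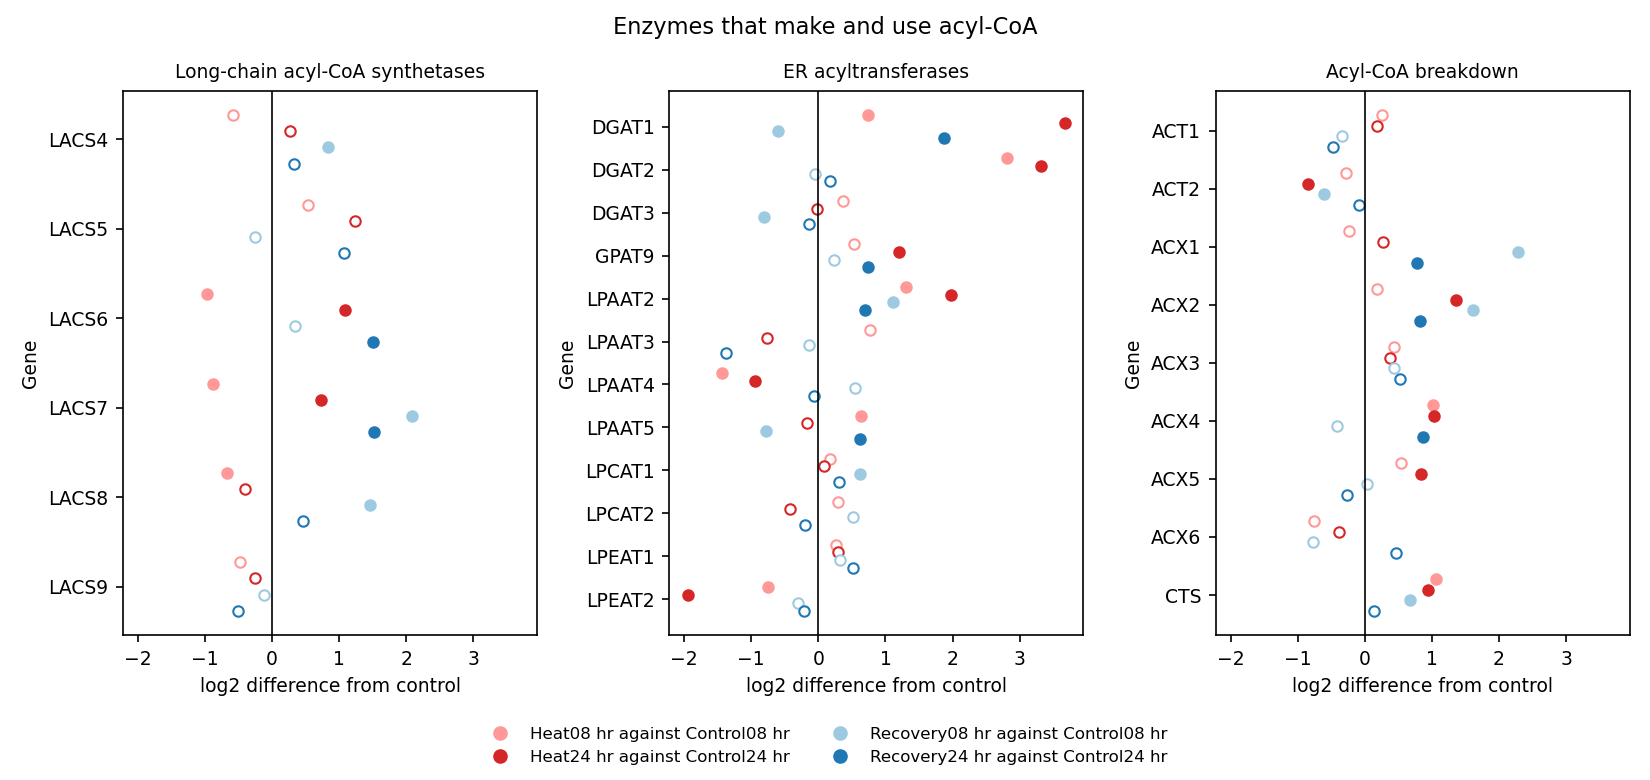
Log2 difference from control for the measured genes of 3 lists (6 long-chain acyl-CoA synthetases, 12 acyltransferases, in the panel named ER acyltransferases, and 9 genes of acyl-CoA breakdown) in 4 comparisons, with filled points for probe sets that passed the test. The furthest point was DGAT1 at Heat24 hr (3.67).

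The probe sets most like each member over the 27 arrays were ranked by Pearson's r of the log2 signal, among those annotated with 1 gene and with a mean signal of at least 100, which left 7909 or, for ACBP5, 7910 to compare. These r values are descriptions, since arrays of one group share their treatment. The probe sets were picked for their likeness over these arrays, so a pattern shared with a member follows from the choice. For ACBP1 the likest were PKDM7D (0.970), AT5G54750 (0.969) and AT1G68680 (0.965), all of them low under heat and high in recovery. PKDM7D, for instance, had group means of 378 in Control08 hr, 96.4 at Heat08 hr and 535 at Recovery08 hr. For ACBP4 they were AT2G20760 (0.977), AT1G15470 (0.958) and AT5G53420 (0.958).

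For ACBP5 the likest probe sets were those of AT5G19240 (0.909), SRX (0.891) and AT2G46600 (0.888), and for ACBP6 those of GH9B7 (0.923), AT5G58740 (0.919) and AT3G46630 (0.909). The endoglucanase gene GH9B7 shared the minimum of ACBP6 at Recovery08 hr, with a group mean of 667 against 1915 in Control08 hr. ACBP2 had no probe set as close, and its likest were the gene annotated as PGM (AT1G78050, 0.838), AT2G43320 (0.789) and AT1G05910 (0.779). All 3 had their highest group mean at Recovery08 hr, as ACBP2 had.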

How the data were processed

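RNA of 27 plant samples was hybridised to Affymetrix ATH1 arrays. The deposited intensity values are linear signals that the authors made by MAS5 for 22746 probe sets, with no detection calls. Probe sets were given genes from the supplementary gene tables and the platform annotation, which names 0 of the 6 ACBP genes, and 14309 probe sets have 1 named gene. Whether a probe set also detects other transcripts was not tested. Tests of log2 signals used limma 3.58.1 under R 4.3.3 (lmFit, eBayes). Each fit held the groups being compared and no others, with control arrays of a clock time pooled over ages, and Benjamini-Hochberg over all probe sets. A call needs an adjusted p under 0.05 and a change of at least 1.5-fold. Python 3.11.15 and pandas 2.3.3 served for summaries and figures. The test was tried on simulated arrays.

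The members and lists were chosen with earlier results of these data known. Genes named are all members, the largest called rise and fall of each enzyme list over the 4 comparisons with controls, the 3 probe sets most like each member, HSFA2 and the markers. List genes with a low signal or a shared probe set are named too. The alternatives tried were quantile normalization, median centring, controls of matched age, a joint fit of all arrays, a replicate block, 16 added to each signal, probe sets with a mean of at least 50, no fold threshold, a 2-fold threshold, and each array left out in turn. Where labels do not say that replicates came from separate plates or harvests, p-values measure the spread between these samples.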

Additional observations from a re-analysis of the deposited data

Results flagged for a closer look

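Some responses differed between time points by the test of the difference itself, at an adjusted p under 0.05 in limma with Benjamini-Hochberg over all probe sets. By that criterion 35.9% of all probe sets differed between the heat time points and 39.1% between the recovery time points. For heat this was ACBP4, with 0.74 on the log2 scale between the Heat24 hr and the Heat08 hr differences. For recovery, a comparison chosen after the values were seen, these were ACBP2 (-1.44), ACBP5 (-1.05), ACBP6 (0.49) and ACBP4 (0.37), of which the last 2 were under 1.5-fold and that of ACBP4 had an adjusted p of 0.30 with age-matched controls. Under quantile normalization the recovery values were -1.50, -1.07, 0.31 and 0.43 in that order, and the heat value of ACBP4 was 0.71. For heat and for recovery, hours, age and clock time differ together between the time points and cannot be told apart. Of the 10 control groups of the members tested for a single array far from the others (chance flags about 1 in 20), 0 held one.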

How the results depend on the processing

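Of 45 member values (5 members in 9 comparisons), no called value changed sign under any alternative, while 10 uncalled results, none larger than 0.32 in size, changed sign in 24 alternative values. Median centring left 1 of the 3 members lower at Heat24 hr, called 1 lower at Recovery24 hr and 2 lower at Recovery24 hr against Heat24 hr. Under median centring and under quantile normalization ACBP2 lost its call at Recovery08 hr against Heat08 hr. Quantile normalization left 2 of the 3 members lower at Heat24 hr, and 1 of 2 higher and 0 of 1 lower at Recovery08 hr. It left 0 lower at Recovery08 hr against Heat08 hr, and called 1 lower at Recovery24 hr against Heat24 hr. A 2-fold threshold left 1 lower at Heat24 hr, 1 higher and 0 lower at Recovery08 hr, 0 lower at Recovery08 hr against Heat08 hr and 0 in the interaction of heat and clock time. With no fold threshold there were 2 higher and 2 lower at Recovery24 hr, 1 higher and 1 lower between the controls, and 2 higher in the interaction of recovery and clock time. In either direction 36.5%, 33.4% and 39.1% of all probe sets passed in these 3 comparisons. ACBP5 was then also called higher at Recovery08 hr. Shares of all probe sets under the other alternatives were not counted. Leaving out 1 array at a time gave 0 to 1 lower at Recovery24 hr (ACBP5) and 0 to 1 lower at Recovery24 hr against Heat24 hr (ACBP2). Age-matched controls, all arrays in 1 fit, 16 added to each signal and a mean of at least 50 changed no call of a member.

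The replicate numbers showed little pairing of the treated arrays with their age-matched controls. Deviations of same-numbered arrays from the mean of their group and age correlated at -0.01 to 0.11. Such weak values cannot show whether same-numbered arrays were grown together. With the replicate number as a block no call changed, and ACBP6 at Recovery08 hr against Heat08 hr had an adjusted p of 0.045.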
